A study of Mus musculus with 8 samples.

Results

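The genes described here are 8 components of Nodal signalling: Nodal, Lefty1, Lefty2, Tdgf1 (Cripto), Gdf3, Foxh1, Smad2 and Smad3. They were taken by gene symbol, 8 of the 24421 genes in the count tables, and each of the 8 had reads. R1 mouse embryonic stem cells (ESCs), an established line, were read on nanopore flow cells (Oxford Nanopore Technologies, ONT) in an undifferentiated state (Undiff) and after 4 days with retinoic acid (RA), an inducer of differentiation (Day4). Polyadenylated RNA was read as native RNA strands (Direct RNA, 500 ng of input) or after copying into cDNA with PCR (cDNA, 50 ng). Each state and kit had 2 replicates, cultures that were grown and treated separately per the study's methods, giving 8 libraries. The RNA of these cultures went into both kits, so the kits are not independent cultures. All groups share the R1 line, and no gene was altered in any of them. Day4 embryoid bodies (aggregates grown in suspension without leukaemia inhibitory factor) spent 4 days in culture before RA was added. The sources differ on 2 points. Undiff cells are ESCs kept with leukaemia inhibitory factor in the study's methods, whereas the labels give all 8 libraries the tissue embryoid bodies and describe Undiff by 4 days in growth medium. The RA dose is 2 µM in the design text and the methods and 2 mM in the labelled treatment. Undiff and Day4 thus differ in RA, culture form and time, which cannot be told apart.

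Nodal is a secreted ligand of the TGF-beta superfamily. It binds activin receptors together with the co-receptor Cripto, the product of Tdgf1, and the receptors phosphorylate Smad2 and Smad3, which enter the nucleus with Smad4 and bind DNA with partners such as Foxh1. Gdf3 is a related ligand that also uses Cripto, and the Lefty proteins are secreted antagonists that are induced by the pathway they inhibit. In mouse ESCs and the early epiblast the pathway is active, and Nodal, Lefty1, Lefty2, Tdgf1 and Gdf3 are known as genes of pluripotent cells.

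Values are reads of a gene per 1000000 reads on genes (CPM). The Direct RNA libraries held 283461 to 907489 reads on genes and the cDNA libraries 948657 to 2088592, so 3 reads, taken as the floor of a library, came to between 3.31 and 10.6 CPM and between 1.44 and 3.16 CPM. The 8 markers of pluripotent cells summed to between 1853 and 5217 CPM in Undiff and to between 29.6 and 172 CPM at Day4 (7 called lower with Direct RNA and 6 with cDNA). Markers of extraembryonic endoderm (8 genes) were at 4.22 to 29.8 CPM and then at 211 to 1058 CPM in sum (5 and 4 called higher), and those of mesoderm (6 genes) at 4.31 to 11.5 and then at 28.8 to 144 CPM (2 and 2 higher). Fibroblast markers (6 genes) were at 4.31 to 14.3 and then at 84.2 to 1090 CPM (3 and 2 higher), with the highest sum in Direct RNA Day4 replicate 1. Col1a1 (448 CPM) and Col1a2 (533 CPM) made up most of it. Thy1 of this list went down in mean, from 7.61 to 2.03 CPM with Direct RNA and 5.60 to 0.481 CPM with cDNA. So did Lama1 of the endoderm list (14.6 to 8.27 and 3.02 to 2.34 CPM) and Hand1 of the mesoderm list (5.84 to 1.36 and 2.54 to 1.10 CPM). None of these was called lower. Neural markers (6 genes) were between 73.8 and 178 CPM in Undiff and between 41.9 and 89.5 CPM at Day4 (1, Tubb3, called lower with each kit). Within each kit the states of the neural sum did not overlap. Tubb3 made up most of that sum in Undiff, at a mean of 145 CPM with Direct RNA and 116 CPM with cDNA against 12.7 and 25.5 CPM at Day4, while Nes, not called, was at 8.93 and 1.72 CPM and then at 46.5 and 13.4 CPM. Gata6, Afp, Ttr, Neurog2, Col1a2, Postn, Lum and Dcn had no read in any Undiff library, and Mesp1 none at Day4. The part of these cell types in the results below was not tested, and in bulk RNA fewer cells of a type and less RNA per cell cannot be told apart.

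The genes are annotated on mm10 (GRCm38) as follows. Nodal lies on the plus strand at chr10:61417972-61425338 with 3 exons, and Gdf3 on the minus strand at chr6:122605403-122610087 with 2. Tdgf1 (chr9:110939603-110946158, 6 exons) and Smad3 (chr9:63646767-63757994, 9 exons) are on the minus strand of the same chromosome. Foxh1 (chr15:76668225-76669948, minus strand, 3 exons) ends 28 bases from Kifc2 on the opposite strand in GENCODE, while the RefSeq gene spans overlap by 368 bases. Lefty2 (chr1:180893108-180899103) and Lefty1 (chr1:180935022-180938400) stand 35918 bases apart on the plus strand and have 4 exons each. Their coding sequences, 1104 bases each, are 91.9% identical (54.7% over the whole transcripts of 1620 and 2473 bases), with 1014 identical positions, and 34 of the differing ones fall in coding bases 46 to 165. This stretch is shown, in GENCODE transcripts, to let the close coding sequences of the pair be compared. Whether reads were split between them in counting was not tested. Capitals mark the bases that differ.
Lefty1: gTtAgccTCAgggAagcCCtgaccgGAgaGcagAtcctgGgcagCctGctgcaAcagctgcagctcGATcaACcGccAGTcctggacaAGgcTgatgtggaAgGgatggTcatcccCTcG
Lefty2: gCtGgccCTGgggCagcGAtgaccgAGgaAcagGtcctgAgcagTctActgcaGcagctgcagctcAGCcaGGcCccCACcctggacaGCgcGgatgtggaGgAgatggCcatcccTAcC

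Promoter windows of 250 bases before the annotated start were at hand for 3 of the 8 genes from RefSeq (GRCm38.p6). The windows were searched on both strands for TGTNNATT (AATNNACA on the other strand), a form of the site that Foxh1 recognises, and for GTCTG, a form of the Smad box that reads CAGAC on the other strand. The letters of the Foxh1 form occur in 11.1% and those of the Smad form in 42.1% of all 27025 promoter windows of this length. The Tdgf1 window (chr9:110946159-110946408, minus strand) is shown for the gene with the largest fall of the 8. It holds AATNNACA at 127 and 101 bases before the start and CAGAC at 113 bases, in capitals, with no overlap between them.
Tdgf1: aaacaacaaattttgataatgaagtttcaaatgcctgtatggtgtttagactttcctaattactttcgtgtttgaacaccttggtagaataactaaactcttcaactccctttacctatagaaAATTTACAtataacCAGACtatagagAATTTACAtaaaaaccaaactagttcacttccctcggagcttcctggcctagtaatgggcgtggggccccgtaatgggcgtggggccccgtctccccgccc
The Smad3 window (chr9:63757995-63758244, minus strand) is shown for the only one of the 8 genes that rose. It is GC-rich, at 69.2% against a median of 52.0% over all windows and 42.0% for Tdgf1, and holds neither set of letters.
Smad3: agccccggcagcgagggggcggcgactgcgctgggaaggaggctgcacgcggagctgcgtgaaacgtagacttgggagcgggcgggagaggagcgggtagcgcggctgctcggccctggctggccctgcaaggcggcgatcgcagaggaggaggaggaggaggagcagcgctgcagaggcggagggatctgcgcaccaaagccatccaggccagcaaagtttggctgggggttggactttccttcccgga
The Nodal window (chr10:61417722-61417971, 53.2% GC) also holds neither. Matches are described only, and binding was not measured.

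In Undiff, Tdgf1 had the highest level per length of the 8 genes with both kits, and Smad3 the lowest. The order below Tdgf1 depends on the scale. On CPM without length, Foxh1 was the lowest in cDNA Undiff (mean 0.718 against 1.48 for Smad3). Smad2 was then above Lefty2, at 57.4 against 54.0 CPM in Direct RNA Undiff, with overlapping replicates, and 29.3 against 10.8 CPM in cDNA Undiff. At Day4 Smad2 and Smad3 had the highest levels. On the scale of CPM per kilobase of the longest transcript, which ranges from 1365 bases for Foxh1 to 8089 for Smad2, the order in Direct RNA Undiff was Tdgf1 (423), Gdf3 (91.3), Lefty1 (71.7), Nodal (63.7), Foxh1 (62.6), Lefty2 (21.9), Smad2 (7.09) and Smad3 (3.34). Lefty1, Nodal and Foxh1 were neighbours in this order whose replicates overlapped. In cDNA Undiff the order per kilobase was Tdgf1 (430), Gdf3 (73.0), Lefty1 (61.9), Nodal (42.6), Lefty2 (4.38), Smad2 (3.62), Foxh1 (0.526) and Smad3 (0.292). There Gdf3 overlapped Lefty1, Lefty2 overlapped Smad2, and Foxh1 overlapped Smad3. At Day4 the order in Direct RNA ran Smad3 (20.2) and Smad2 (8.89), with no overlap, and the other 6 genes were at or under 3.13 CPM per kilobase. The Day4 order in cDNA ran Smad2 (5.24) and Smad3 (3.99), which overlapped, above 6 genes at or under 2.42.

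**Figure D1:**
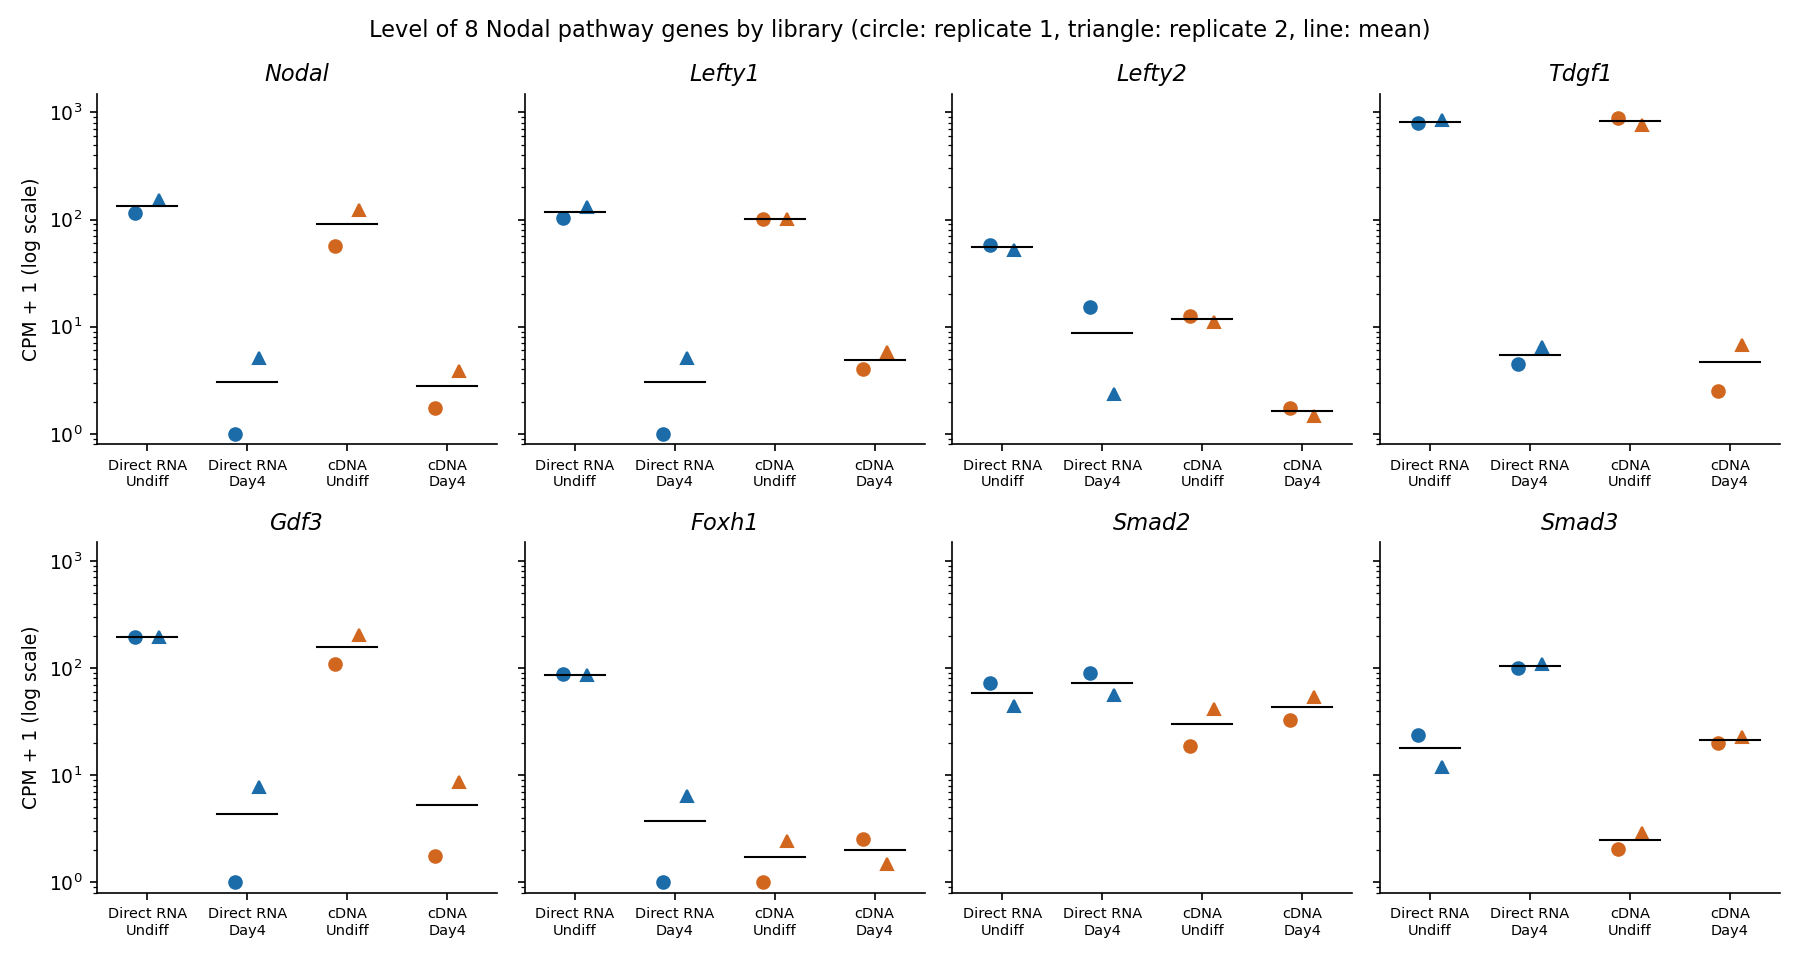
Level of each of the 8 genes in the 8 libraries, as CPM + 1 on a log axis, with circles for replicate 1, triangles for replicate 2 and a line at the mean of each kit and state. Nodal, Lefty1, Tdgf1 and Gdf3 stood at 55.9 CPM or more in every Undiff library and at 7.70 CPM or less in every Day4 library, the Smad2 states overlapped, Smad3 was higher at Day4, and Foxh1 was above 5.42 CPM in Direct RNA Undiff only.

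The comparison of Day4 with Undiff asks which components changed on differentiation. Of the 8 genes, 6 were called lower at Day4 in Direct RNA, where 7.67% of the 9646 genes with a mean normalised count of at least 5 were called lower, and 5 were called lower in cDNA, against 9.24% of 10271. Smad3 alone was called higher, with both kits, against backgrounds of 9.54% and 8.69%. Smad2 was called in neither. A gene was called with an adjusted p of at most 0.05 over all genes, a log2 fold change of 1 or more in size and that mean count, and in cDNA 7 of the 8 reached the count. Fold changes below are DESeq2's shrunken log2 values with their SE. The 8 were named with earlier results on these libraries known, so their share of calls is a description.

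Both ligands fell. Nodal had 40 and 138 reads in Direct RNA Undiff (115 and 152 CPM) and 0 and 3 reads at Day4 (0 and 4.07 CPM). The cDNA counts were 53 and 256 reads (55.9 and 123 CPM) and then 1 and 6 reads (0.759 and 2.89 CPM). No Day4 library reached an Undiff library. The log2 fold change was -5.12 ± 0.836 with Direct RNA (adjusted p = 6.9e-08) and -5.49 ± 0.719 with cDNA (adjusted p = 4.1e-12). In pooled reads Undiff was 48.2-fold above Day4 in Direct RNA, with a 95% counting interval of 16.2 to 236 because only 3 reads remained, and 49.3-fold in cDNA (23.7 to 124). Gdf3 had 68 and 175 reads in Direct RNA Undiff (195 and 193 CPM) and 0 and 5 at Day4 (0 and 6.78 CPM). With cDNA there were 103 and 421 reads (109 and 202 CPM) and then 1 and 16 (0.759 and 7.70 CPM). The states were again apart in all libraries, and the cDNA replicates differed by more than those of Direct RNA. Gdf3 changed by -5.11 ± 0.718 with Direct RNA (adjusted p = 1.6e-10) and by -5.21 ± 0.617 with cDNA (adjusted p = 9.4e-15).

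The co-receptor gene Tdgf1 had the largest fall of the 8. It was covered by 276 and 764 reads in Direct RNA Undiff (792 and 842 CPM) and by 1 and 4 at Day4 (3.53 and 5.42 CPM). In cDNA the reads were 848 and 1606 (894 and 769 CPM) and then 2 and 12 (1.52 and 5.78 CPM). The replicates of Undiff lay close together with both kits, and each Day4 library held under 1% of the Undiff mean of its kit, between 0.182% and 0.695%. The log2 fold change was -7.10 ± 0.623 with Direct RNA (adjusted p = 3.9e-27) and -7.83 ± 0.538 with cDNA (adjusted p = 4.2e-44). Only 1 gene of the 9646 in Direct RNA and 1 of the 10271 in cDNA had a lower fold change, since Tdgf1 took rank 2 from the lowest in both. Nodal took ranks 32 and 37, Gdf3 36 and 56, Lefty1 46 and 97 and Lefty2 270 and 262, and Foxh1 was at 103 in Direct RNA.

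The antagonist genes Lefty1 and Lefty2 fell too, and Lefty2 rested on few reads. Lefty1 had 36 and 117 reads in Direct RNA Undiff (103 and 129 CPM) and 0 and 3 at Day4. In cDNA Undiff the replicates stood at 100.1 and 100.5 CPM (95 and 210 reads), and Day4 had 4 and 10 reads (3.03 and 4.81 CPM). The fold change was -4.92 ± 0.850 with Direct RNA (adjusted p = 4.7e-07) and -4.79 ± 0.594 with cDNA (adjusted p = 1.8e-13). Lefty2 had 20 and 46 reads in Direct RNA Undiff (57.4 and 50.7 CPM) and 4 and 1 at Day4 (14.1 and 1.36 CPM). In cDNA it had 11 and 21 reads (11.6 and 10.1 CPM) and then 1 and 1. The states did not overlap with either kit, and Direct RNA Day4 replicate 1 kept 26.1% of the Undiff mean while the other Day4 libraries kept between 2.51% and 7.01%. Lefty2 changed by -2.87 ± 0.888 with Direct RNA (adjusted p = 0.015) and by -3.72 ± 1.13 with cDNA (adjusted p = 0.0125). Pooled over replicates, Undiff was 17.9-fold above the 2 reads of cDNA Day4, with a counting interval of 4.56 to 154.

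Among the nuclear effectors the 3 genes went separate ways. Foxh1, the winged-helix DNA-binding partner of the Smads, had 30 and 77 reads in Direct RNA Undiff (86.1 and 84.9 CPM) and 0 and 4 at Day4 (0 and 5.42 CPM). It changed by -4.19 ± 0.852 (adjusted p = 3.4e-05). In cDNA it had 0 and 3 reads in Undiff and 2 and 1 at Day4, all at or under the floor of 3 reads, so no fold is given there and a change could not be seen in so few reads.

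Smad2, a receptor-activated Smad, lies on the plus strand of chromosome 18 with 11 exons in its longest transcript. It had 25 and 39 reads in Direct RNA Undiff (71.7 and 43.0 CPM) and 25 and 41 at Day4 (88.2 and 55.6 CPM). In cDNA it had 17 and 85 reads (17.9 and 40.7 CPM) and then 42 and 110 (31.9 and 53.0 CPM). The states overlapped with both kits. The unshrunken log2 difference was 0.23 with Direct RNA (95% interval -0.96 to 1.41, adjusted p = 0.93) and 0.19 with cDNA (-1.01 to 1.38, adjusted p = 0.95), so a 2-fold rise lies within both intervals. Smad3, its close relative, had 8 and 10 reads in Direct RNA Undiff (23.0 and 11.0 CPM) and 28 and 79 at Day4 (98.8 and 107 CPM). In cDNA it had 1 and 4 reads (1.05 and 1.92 CPM) and then 25 and 45 (19.0 and 21.7 CPM). Every Day4 library was above every Undiff library of its kit. The fold change was 2.47 ± 0.638 with Direct RNA (adjusted p = 0.0021) and 3.02 ± 0.947 with cDNA (adjusted p = 0.017), and the pooled ratio of Day4 to Undiff was 7.31 (counting interval 4.41 to 12.8) and 12.5 (5.12 to 39.8).

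**Figure D2:**
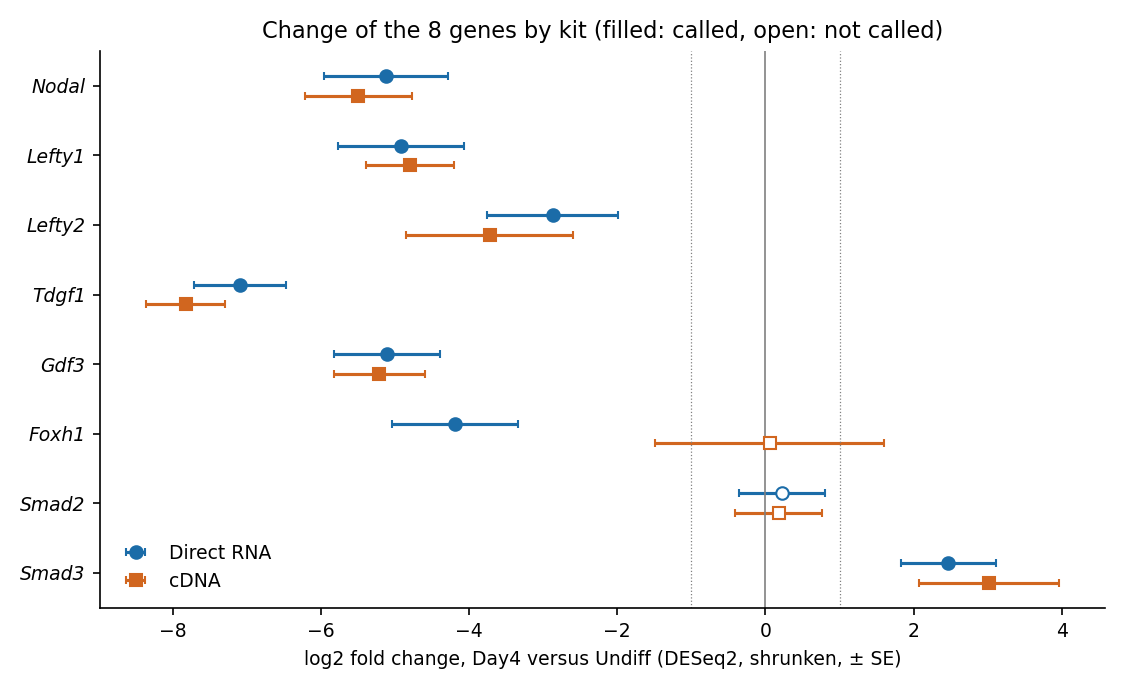
Log2 fold change of the 8 genes from Undiff to Day4 (DESeq2, shrunken, with SE bars) for Direct RNA (circles) and cDNA (squares), filled where called and open where not, with dotted lines at -1 and 1. Nodal, Lefty1, Lefty2, Tdgf1 and Gdf3 lay between -2.87 and -7.83, Smad2 at 0.22 and 0.18, Smad3 at 2.47 and 3.02, and Foxh1 at -4.19 in Direct RNA. The open cDNA square of Foxh1, at 0.06, rests on a mean count under 5 and is no measured fold.

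These calls differed in how much they rested on a single library. Nodal, Lefty1 and Tdgf1 stayed called with both kits when any 1 library was left out, with adjusted p of at most 0.012. The Gdf3 call was lost in Direct RNA without either Undiff replicate, where its log2 fold change went from -5.11 to -3.65 and -3.64. In cDNA the Gdf3 call was lost without Undiff replicate 2. Its log2 fold change there ran from -6.64 to -3.90 over the libraries left out. Foxh1 was lost in Direct RNA without Undiff replicate 2 (adjusted p = 0.055). For Lefty2, the call was kept in Direct RNA only without Day4 replicate 1, with an adjusted p of 0.33 to 0.61 in the other fits, and was lost in cDNA whichever library was left out (0.14 to 0.39). For Smad3, it was kept in Direct RNA only without Undiff replicate 1 (0.081 to 0.43 in the other fits) and was lost in cDNA whichever library was left out (0.13 to 0.44). A group left with 1 library was assumed to vary like the other. The quasi-likelihood test of edgeR called the 7 genes called in Direct RNA and the 6 called in cDNA by DESeq2, with the largest adjusted p at 0.0033 (Smad3 in cDNA).

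Some reads of the 5 genes that fell with both kits were left at Day4. Summed over Nodal, Lefty1, Lefty2, Tdgf1 and Gdf3, Undiff stood at 1263 and 1366 CPM in Direct RNA and at 1170 and 1204 CPM in cDNA. At Day4 the sum was 1.34% of the Undiff mean in Direct RNA replicate 1 (5 reads, 95% Poisson interval 0.436 to 3.13) and 1.65% in replicate 2 (16 reads, 0.943 to 2.68). In cDNA it was 0.575% in replicate 1 (9 reads, 0.263 to 1.09) and 1.83% in replicate 2 (45 reads, 1.33 to 2.44). Replicate 2 was the higher of the pair with both kits, with overlapping intervals in Direct RNA. Equal numbers are not known to mark the same culture in both kits. The Poisson intervals cover counting error only, and replicates differed genome-wide by more than counting error. The 8 pluripotency markers stood at 2.14% and 3.37% in the Direct RNA replicates and at 1.28% and 5.43% in those of cDNA. Their sum rests in part on Tbx3, which kept between 37.1% and 111% of its Undiff mean and gave 28 of the 39 marker reads of cDNA replicate 1, so the 5 genes and the markers are given side by side only.

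**Figure D3:**
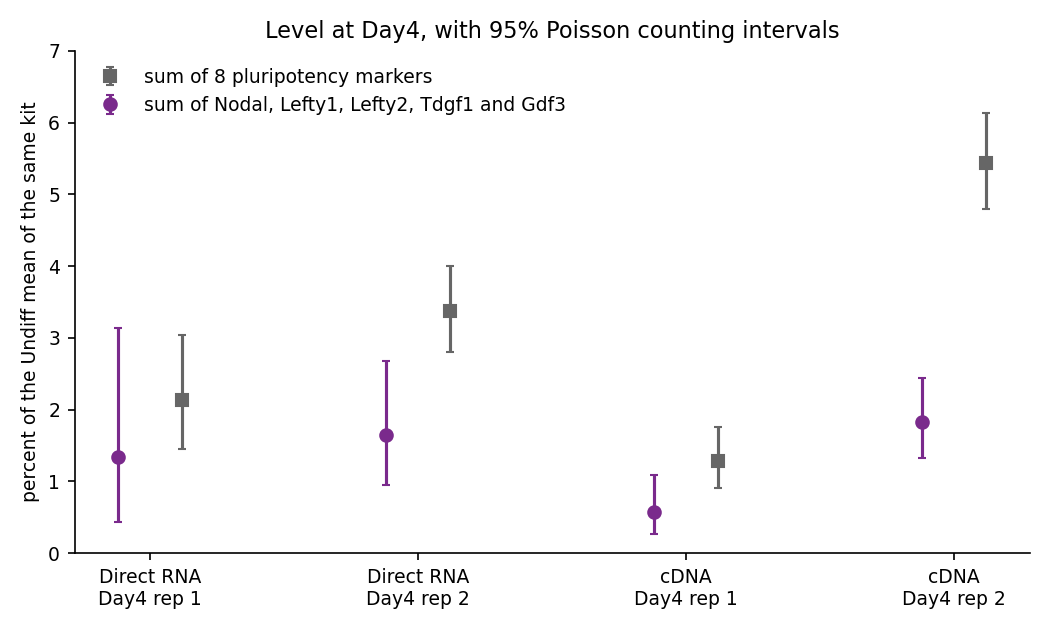
Summed level of Nodal, Lefty1, Lefty2, Tdgf1 and Gdf3 (circles) and of 8 pluripotency markers (squares) in each Day4 library, as a percent of the Undiff mean of the same kit, with 95% Poisson counting intervals. The 5 genes lay between 0.575% and 1.83% and the markers between 1.28% and 5.43%. Replicate 2 was the higher with both kits, with overlapping intervals in Direct RNA.

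Within both pairs of related genes the balance of reads differed between groups, by state and kit for Smad2 and Smad3 and by kit for the Lefty genes. Smad3 made up 24.2% (95% Wilson interval 12.8 to 41.0) and 20.4% (11.5 to 33.6) of the Smad2 and Smad3 reads in the Direct RNA Undiff replicates and 52.8% (39.7 to 65.6) and 65.8% (57.0 to 73.7) at Day4. In cDNA it made up 5.56% (0.988 to 25.8) and 4.49% (1.76 to 11.0) in Undiff and 37.3% (26.7 to 49.3) and 29.0% (22.5 to 36.6) at Day4. The share of Smad3 was thus higher in each Day4 library than in each Undiff library of its kit, and lower in cDNA than in Direct RNA in both states. For the antagonists, Lefty1 made up 64.3% (51.2 to 75.5) and 71.8% (64.4 to 78.1) of the Lefty reads in Direct RNA Undiff. In cDNA Undiff its share was 89.6% (82.4 to 94.1) and 90.9% (86.5 to 94.0), above both Direct RNA replicates. At Day4 the Lefty pair had between 4 and 11 reads a library, too few to place the share. Intervals cover counting error only.

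**Figure D4:**
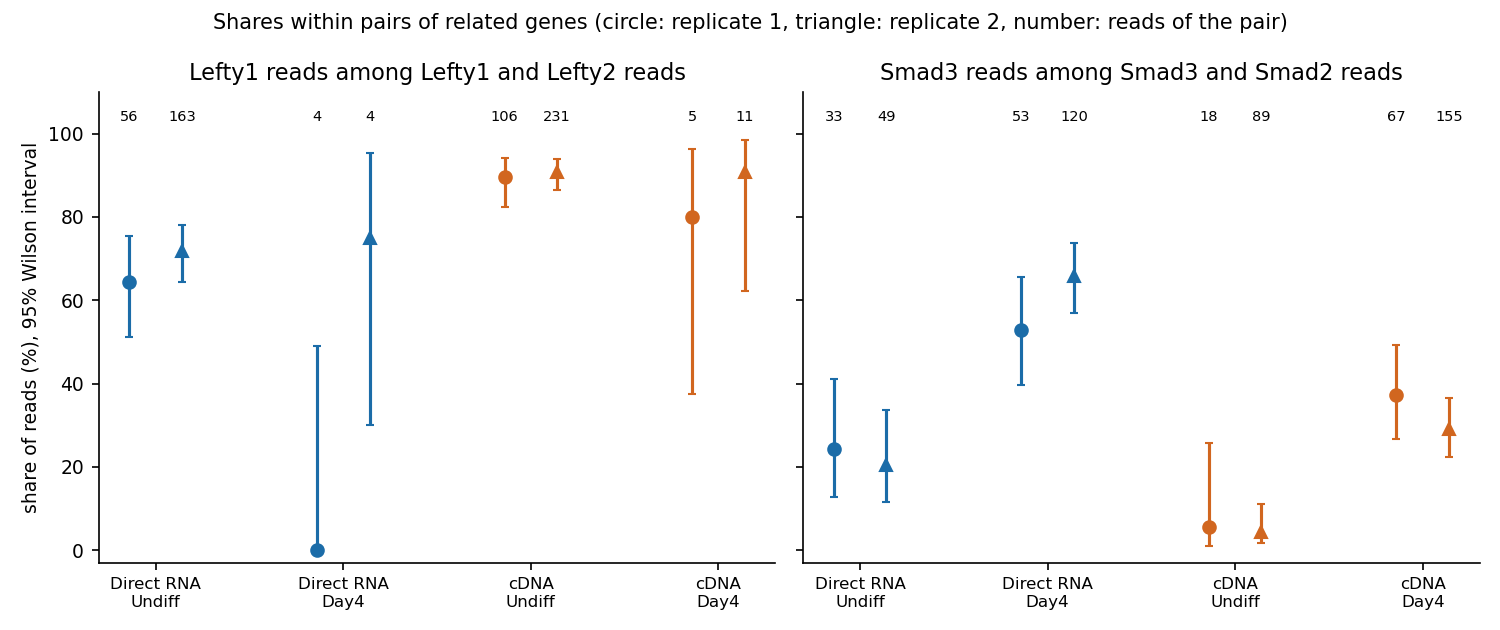
Share of Lefty1 among Lefty1 and Lefty2 reads (left) and of Smad3 among Smad3 and Smad2 reads (right) in each library, in percent with 95% Wilson intervals and the reads of the pair above. Lefty1 held 64.3% and 71.8% in Direct RNA Undiff against 89.6% and 90.9% in cDNA Undiff, and Smad3 held 24.2% and 20.4% in Direct RNA Undiff against 52.8% and 65.8% at Day4.

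Whether a gene changed differently with the 2 kits was tested by the interaction of kit and state in DESeq2. No member passed (0 of 8 with DESeq2 and 0 of 8 with edgeR), where 0.0116% of 17267 genes did, and 1 of the 8, Foxh1, had an unadjusted p under 0.05 with either tool. Its interaction was 4.39 on the log2 scale (SE 1.82, adjusted p = 1) and rests on the few cDNA reads given above. Values of the other 7 lay between -1.30 and 0.76. Their 95% intervals were wide, the narrowest at -1.65 to 1.56 (Smad2) and the widest at -4.59 to 2.00 (Lefty2). A 2-fold difference between kits in either direction lies within each of them.

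The kits were also compared at equal state. Lefty2, Foxh1 and Smad3 were called lower in cDNA, 3 of the 8, where 26.6% of 10426 genes were called lower and 24.7% higher. None was called higher. Foxh1 differed most, at -3.74 ± 0.720 (adjusted p = 1.5e-06). In Undiff it had 107 pooled reads in Direct RNA and 3 in cDNA, a ratio of CPM of 86.3 with a counting interval of 28.7 to 425. Direct RNA was counted by strand. For gene counts the methods name this setting for Direct RNA only, and for exon counts they give cDNA as counted without strand. Kifc2, the neighbour on the opposite strand, had between 0 and 2 reads in the Direct RNA libraries and between 1 and 11 in the cDNA libraries. Reads left out as matching more than 1 gene were between 1.21% and 1.44% of all reads tallied for Direct RNA and between 3.17% and 5.04% for cDNA. The part of this overlap in the Foxh1 value was not tested.

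Smad3 was lower in cDNA, with a log2 difference of -1.83 ± 0.391 (adjusted p = 1.8e-05), with 17.0 against 1.48 CPM in Undiff and 103 against 20.3 CPM at Day4 in Direct RNA and cDNA. Lefty2 was at -1.61 ± 0.544 (adjusted p = 0.011), with 54.0 ± 4.74 CPM in Direct RNA Undiff and 10.8 ± 1.09 CPM in cDNA Undiff. The Lefty2 call was lost without either Direct RNA Undiff replicate, cDNA Undiff replicate 2 or cDNA Day4 replicate 2 (adjusted p of 0.058 to 0.072), and those of Foxh1 and Smad3 were kept whichever library was left out. edgeR called Lefty2 and Smad3, and its filter on low counts left Foxh1 untested. Tdgf1 was at 0.79 (adjusted p = 0.029, under the fold threshold), Lefty1 at 0.67, Gdf3 at 0.50, Nodal at 0.19 and Smad2 at -0.07. These values are relative to the size factors, on which cDNA libraries sit 0.75 higher in log2 than on CPM. On CPM the sign of Nodal, Lefty1 and Gdf3 turns in Undiff, while Tdgf1 was nearly level (817 and 831 CPM in Undiff). The 3 called genes were lower in cDNA on both scales.

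**Figure D5:**
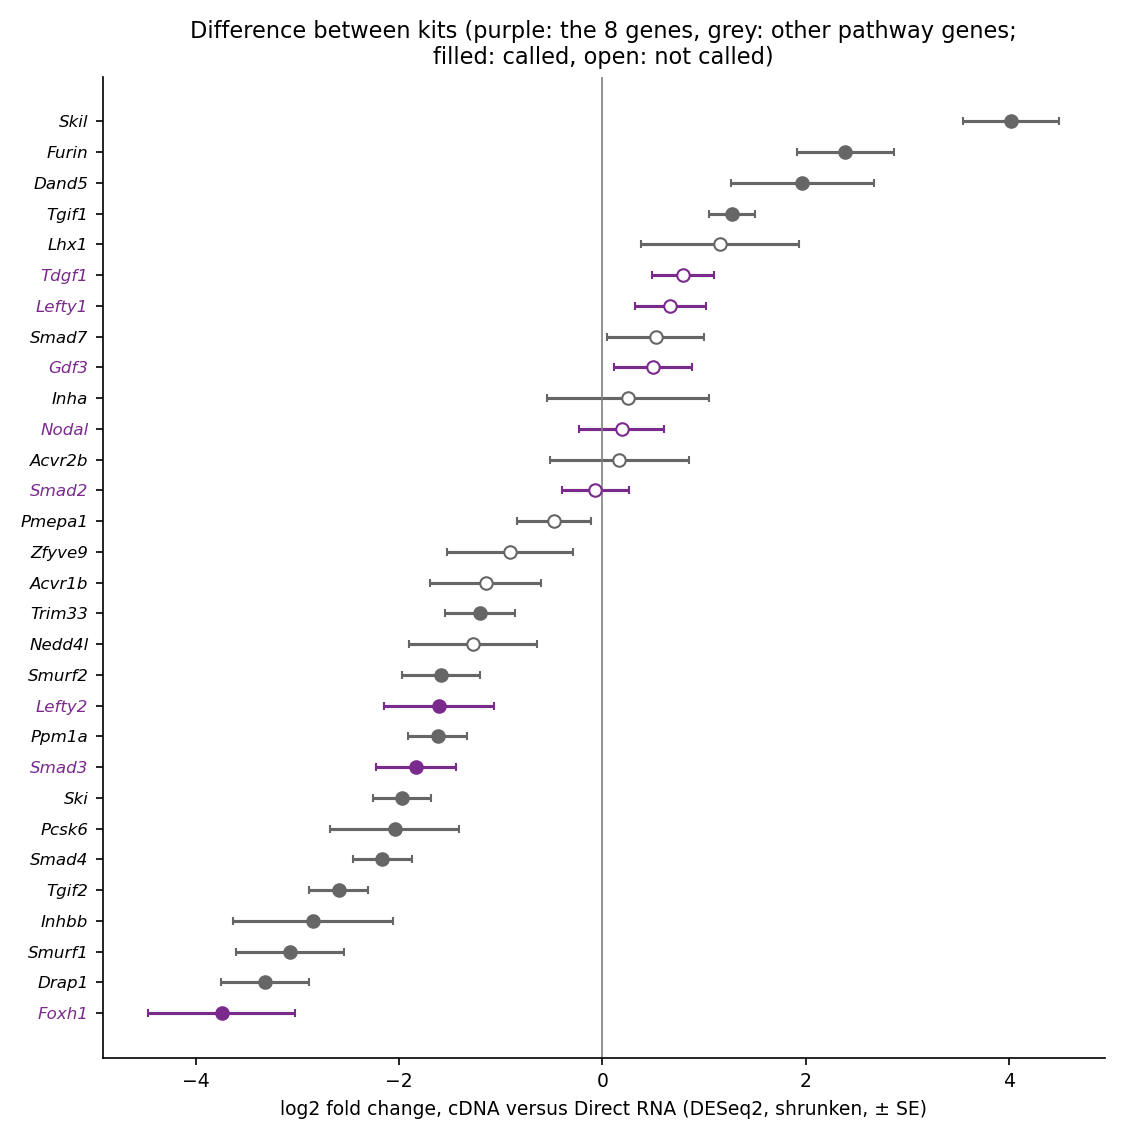
Log2 fold change of cDNA over Direct RNA at equal state (DESeq2, shrunken, with SE bars) for the 8 genes in purple and other pathway genes in grey, for genes with a mean count of at least 5, filled where called. Of the genes drawn, Foxh1 was the lowest at -3.74 and Skil the highest at 4.02, and no purple point is called on the higher side.

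The other genes of the pathway were read from a list of 34 that held ligands and convertases, receptors, secreted antagonists, intracellular partners and mesendoderm targets. In Direct RNA 21 of the 34 reached the mean count, of which 1 was called higher and 1 lower, against 9.54% and 7.67% of all genes. In cDNA 21 reached it, of which 3 were called higher and 2 lower, against 8.69% and 9.24%. The median log2 fold change of those 21 was -0.002 in Direct RNA and 0.66 in cDNA, beside 0.03 and 0.002 over all genes at that count and -4.56 and -4.79 for the members. The fall of the ligands, co-receptor and Lefty genes was thus not the course of most listed genes.

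Among the mesendoderm targets, Eomes, Gsc and Foxa2 were under the mean count with both kits, with at most 9 reads in any library, and Mixl1, with at most 12 reads, was not called in cDNA. Lhx1 had no read in the 4 Undiff libraries, 3 and 7 in Direct RNA Day4 and 30 and 31 in cDNA Day4, and was called in cDNA only, where Day4 was at least 8.2-fold higher than the floor of 3 reads a library. Its call was lost without cDNA Undiff replicate 2 or Day4 replicate 1 (adjusted p = 0.097 and 0.14).

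The activin receptor genes were low, and none was called between the states by DESeq2 or had an unadjusted p under 0.05 there. edgeR called neither Acvr1b nor, in cDNA, Acvr2b, and its filter on low counts left the other receptor tests out. Acvr1b, the type I receptor Alk4, was at 17.2 and 27.5 CPM in Direct RNA Undiff and 14.1 and 29.8 CPM at Day4 (log2 fold change -0.10 ± 0.866, adjusted p = 0.97). In cDNA its log2 fold change was 1.06 ± 1.04 (adjusted p = 0.71). The type II receptors Acvr2a and Acvr2b had at most 11 reads in any Direct RNA library, with log2 fold changes of 0.68 ± 1.01 and -1.26 ± 1.13 (adjusted p = 0.87 and 0.66). In cDNA Acvr2a had at most 1 read a library (-3.95 ± 0.874 between kits, at a mean count under 5) and Acvr2b between 3 and 19 (0.36 ± 1.03, adjusted p = 0.94). Cfc1 (Cryptic), a co-receptor of the Cripto family, had 7 and 27 reads in cDNA Undiff and 0 and 1 at Day4, a log2 fold change of -4.25 ± 1.23 (adjusted p = 0.0083) that was lost without cDNA Undiff replicate 2 or either Day4 replicate (adjusted p of 0.18 to 0.32). With Direct RNA it had 8 reads in all 4 libraries.

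Among ligands and secreted antagonists the listed genes were mostly near the floor. Inhbb, a subunit of activin B, had 16 and 22 reads in Direct RNA Undiff and 0 and 2 at Day4. Its log2 fold change of -3.54 ± 1.10 (adjusted p = 0.016) was lost whichever library was left out (0.17 to 0.44), and in cDNA it was under the mean count. Inha, the inhibin alpha subunit, had no read in Undiff, 2 and 18 in Direct RNA Day4 and 15 and 37 in cDNA Day4. It was called in cDNA only, where Day4 was at least 6.3-fold higher than the floor, and this call was lost without cDNA Undiff replicate 2 or either Day4 replicate (adjusted p of 0.076 to 0.28). Gdf1 and Cer1 had no read in any of the 8 libraries. These genes called with 1 kit, Skil and Lhx1 included, were named after their values were seen.

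Of the 14 intracellular partners and inhibitors, none was called in Direct RNA by DESeq2 (4 had an unadjusted p under 0.05) and 2, Smad4 and Tgif2, by edgeR, and Skil was called lower in cDNA, where edgeR called Ppm1a as well. Smad4, the common partner of Smad2 and Smad3, was at 74.6 and 59.5 CPM in Direct RNA Undiff and at 148 and 137 CPM at Day4. In cDNA it was at 6.32 and 9.58 CPM and then at 18.2 and 21.2 CPM. The states did not overlap with either kit, yet the log2 fold changes of 0.97 ± 0.469 (adjusted p = 0.20) and 0.90 ± 0.759 (adjusted p = 0.62) did not pass. edgeR called Smad4 in Direct RNA (1.06, adjusted p = 0.017). Skil, the co-repressor SnoN, had 1212 and 1458 reads in cDNA Undiff and 453 and 1218 at Day4 (log2 fold change -1.43 ± 0.434, adjusted p = 0.012), a call lost without cDNA Undiff replicate 1 or either Day4 replicate (0.059 to 0.41). In Direct RNA it had between 12 and 77 reads a library. The receptor-activated Smads of the BMP branch, Smad1, Smad5 and Smad9, were not called with DESeq2 with either kit. Smad1 was at 1.55 ± 0.802 in Direct RNA and 2.00 ± 1.04 in cDNA (adjusted p = 0.25 in both), and edgeR called it with both kits (adjusted p = 0.031 and 0.035). Smad5 was at 1.40 ± 0.722 and 1.19 ± 0.668 (adjusted p = 0.25 and 0.32), and edgeR called it in Direct RNA only (0.024). Smad9 had at most 9 reads in any library.

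Between kits, 23 of the 34 listed genes reached the mean count and 14 of these were called, 4 higher and 10 lower in cDNA, against 24.7% and 26.6% of all genes. Smad4 was at -2.16 ± 0.287 (adjusted p = 9.3e-13), and 7 of the other 13 intracellular genes were lower as well, from Drap1 at -3.32 to Trim33 at -1.20. Skil stood at the other end, at 4.02 ± 0.475 (adjusted p = 8.9e-16), with 93 pooled reads in Direct RNA Undiff and 2670 in cDNA Undiff. Tgif1, a co-repressor of Smads, was higher by 1.28 ± 0.227. The secreted antagonist Dand5 and the convertase Furin were the other 2 genes called higher. The Dand5 call was not made by edgeR and was lost without Direct RNA Undiff replicate 2, Direct RNA Day4 replicate 1, cDNA Undiff replicate 1 or either cDNA Day4 replicate, and that of Trim33 without cDNA Undiff replicate 2. These genes, like Tgif2 and Ppm1a, were named after their values were seen.

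The genes with the profile most like each member were sought over the 8 libraries by the root mean square difference of log2(CPM + 1), each profile centred on its own mean, among 10489 other genes with at least 10 reads in at least 2 libraries. Nodal was nearest to Triml2 (0.38), Gdf3 (0.40) and Hsf2bp (0.41), and Gdf3 to Zfp296 (0.33), Triml2 (0.34) and Tcl1 (0.36). Lefty1 was nearest to Hsf2bp (0.23), Jam2 (0.28) and Gatsl3 (0.44), whereas Lefty2 was nearest to Them6 (0.51), Ubash3a (0.58) and Laptm5 (0.61). The nearest to Tdgf1 were Fgf4 (0.63), Zfp42 (0.73) and Trh (0.76), larger distances than those of the other members. Smad3 was nearest to Ltbr (0.27), Fads2 (0.28) and Armcx2 (0.31), which were lower in cDNA than in Direct RNA as Smad3 was, for example 245 against 64.2 CPM at Day4 for Fads2. Smad2 was nearest to Gm5595 (0.17), Bzw1 (0.20) and Mdm1 (0.22). Gdf3 was thus the only member among the 3 nearest of another, and Nodal took place 4 among the neighbours of Gdf3. Foxh1, under the mean count in cDNA, was not compared.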

How the data were processed

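The authors deposited raw counts, whole numbers of reads per gene. Their methods name minimap2 for alignment to mm10 and htseq-count with the UCSC annotation of iGenomes for counting. Direct RNA was counted by strand. Each table lists 24421 genes and 5 counters of unassigned reads, which held between 38.1% and 61.7% of all reads tallied and stayed out of library sizes and tests. Here the states were compared per kit in DESeq2 1.42.0 (R 4.3.3), with the settings of the study's methods (shrunken fold changes, Cook's cutoff and independent filtering off) and Benjamini-Hochberg adjustment over all genes. The interaction and the kit comparison used all 8 libraries. The fits were tested on simulated data. edgeR 4.0.16, TMM factors, other filters, no shrinkage, a replicate block and leaving out each library were alternatives. No pair of replicates agreed within sampling noise (chi-square per degree of freedom between 2.68 and 14.9).

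The 8 genes and all lists were chosen with earlier results of these data known. The genes named are the 8 members, pathway genes called with both kits, Smad4, the activin receptors, the BMP Smads, markers without a read in a state, and the 3 nearest profiles of each member. A listed gene is not reported here. Coordinates and lengths are from GENCODE vM21. Ratios of pooled reads have exact conditional intervals.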

Additional observations from a re-analysis of the deposited data

How the results depend on the processing

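Without shrinkage, with TMM factors or with edgeR, the members called in each state comparison stayed the same (7 in Direct RNA and 6 in cDNA). Requiring 10 reads in every library left 0 members called in Direct RNA, in cDNA and between kits, since it removed each gene that is near 0 in a state or kit. It left 1 pathway gene called in Direct RNA, 2 in cDNA and 4 between kits, where the count of 14 was otherwise between 12 and 15. edgeR called 6 pathway genes in Direct RNA, against 2. Leaving out each library in turn gave 3 to 6 members in Direct RNA and 3 to 4 in cDNA, and 1 pathway gene in Direct RNA and 1 to 4 in cDNA. The lowest member counts came without Undiff replicate 2 of either kit, the deepest library of each, and the cause was not tested.

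With the replicate number as a block, 5 members were called in Direct RNA and 4 in cDNA, 1 pathway gene in Direct RNA and 4 in cDNA, and 3 members between kits. Lefty2 and Smad3 were then at adjusted p of 0.16 and 0.054 with Direct RNA and of 0.078 and 0.099 with cDNA, Inhbb at 0.13 and Cfc1 at 0.056. Both kits read RNA of the same cultures, but the labels do not say that equal numbers mark the same culture. Over 1395 genes the deviations of replicates correlated at 0.21 between the states in Direct RNA, 0.50 in cDNA, 0.12 between kits in Undiff and -0.42 between kits at Day4. With the Day4 numbers crossed, chosen after seeing the data, 3 members were called between kits.

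Values that changed sign were not called in any fit. When each library was left out, Smad2 ranged from -0.11 to 0.49 in Direct RNA, from -0.28 to 0.75 in cDNA and from -0.27 to 0.14 between kits (0.022 with TMM factors), and Nodal between kits from -0.22 to 0.52. The fitted value of Foxh1 in cDNA, which is no measured fold, ranged from -0.44 to 0.60, Acvr1b in Direct RNA from -0.62 to 0.29, Acvr2b in cDNA from -0.42 to 1.66, Skil in Direct RNA from -1.83 to 0.59 and Cfc1 in Direct RNA from -0.92 to 0.50. The CPM of Lefty1, Lefty2, Tdgf1 and Smad3 in 1 cDNA group each, and of Gdf3 and Foxh1 in Direct RNA Undiff, moved by more than 1 SD when scaled by size factors, 6 of 32 values. With 2 libraries a group and as few as 0 to 3 reads at Day4, depth limits the size of each fall more than its direction.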
